A study of Mus musculus with 49 samples.

Results

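The genes of ubiquitin conjugation and deubiquitination were followed across single cortical neurons. Members were chosen by the start of their symbol (Ube2, Ube3, Fbxo, Fbxl or Fbxw, or Usp, Trim, Rnf or Cul followed by a digit), and 193 of the 9020 genes listed in the table met the rule. The rule itself used no values, but earlier results of these data were known when it was set. Of these, 28 were Ube2 genes, 3 were Ube3 genes, 39 were Usp genes, 38 were F-box genes, 22 were Trim genes, 56 were Rnf genes and 7 were cullins. The cells were 49 neurons of wild-type CD1 mice, labelled with FlashTag at E13.5 (embryonic day), collected at P7 (postnatal day) by patch pipette in the primary somatosensory cortex, and sequenced from their 3′ ends in 5 library pools. FlashTag is a fluorescent dye injected into the ventricle that marks progenitors dividing at its border together with their newborn daughter cells. The labels give 1 condition and name no animal, so the 49 cells were treated as 1 sample, the spread between cells was described, and no test between cells was made.

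Ubiquitin is a small protein that is attached to other proteins and can mark them for destruction by the proteasome, for sorting to lysosomes or for a change in activity. An E1 enzyme activates it, an E2 conjugating enzyme carries it, and an E3 ligase chooses the substrate. Ligases of the HECT type take the ubiquitin over from the E2, RING-type ligases (most Rnf and Trim proteins) bring E2 and substrate together, and cullins are scaffolds on which F-box proteins present the substrate. Ubiquitin-specific proteases (Usp) remove ubiquitin again. In neurons this machinery is known for its part in axon growth and in the turnover of synaptic proteins.

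Levels are given in RPM, a gene's reads as a share of all reads counted in that cell, brought to a common total. A member was taken as present in a cell at 10 RPM or more. The kit reads the 3′ end of a transcript, so that RPM was not divided by gene length, and across 192 members matched to the annotation the mean RPM and the longest transcript had a Spearman's rho of -0.088. The shallowest cell had 209850 reads, the median cell 1240101 and the deepest 35342325. A value of 0 RPM allows up to 3 reads, which stand for 0.0849 RPM in the deepest cell and 14.3 RPM in the shallowest, and this covers counting error only. At least 2 of 4 neuron markers were present in all 49 cells, at least 2 of 3 excitatory markers in 35 and at least 2 of 5 inhibitory markers in 17. At least 2 markers of astrocytes were present in 10 cells (summed level 0 to 1949 RPM, median 28.4), of the oligodendrocyte lineage in 15 (0 to 3402 RPM, median 60.5), of microglia in 8 (0 to 3520 RPM, median 5.45) and of red blood cells in 47 (27.8 to 688002 RPM, median 894). The part of these other cell types in the values below was not tested.

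Of the 193 members, 80 (41.5%) were present in at least 25 of the 49 cells, beside 38.2% of all listed genes. A member was present in a median of 22 cells, with a range from 2 to 49, where the median of all listed genes was 20 cells. The median of the members' median levels was 5.25 RPM, against 3.87 RPM for all listed genes. Single high values and very wide presence were less common among the members. Of them, 19 (9.84%) reached 1000 RPM in some cell, beside 17.1% of all listed genes, and 15 (7.77%) were present in at least 40 cells, beside 11.5%. The upper quartile of the median levels was close, at 37.7 RPM for members and 38.1 RPM for all listed genes. These shares are descriptions of the list, and each listed gene reaches 100 RPM in at least 2 cells.

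The classes are described side by side, with no test between them (plot of cells per member). Of the 28 E2 members, 20 (71.4%) were present in at least 25 cells, with a median of 32 cells and a median level of 41.3 RPM. The share was 66.7% of the 3 HECT members, 45.5% of the 22 Trim members and 42.9% of the 7 cullins. It was 38.5% of the 39 Usp members, 32.1% of the 56 Rnf members and 31.6% of the 38 F-box members. These shares cover only genes with a row, and the classes differ in how many of their annotated genes have one. A row was held by 32.4% of the Trim, 48.1% of the F-box and 65.9% of the Rnf genes. It was held by 69.6% of the Usp, 73.0% of the E2 and 87.5% of the cullin genes. The order of the classes over all annotated genes was not compared. The median level was 27.6 RPM for HECT, 5.52 RPM for F-box, 4.26 RPM for Usp, 3.87 RPM for Trim, 3.09 RPM for Rnf and 1.31 RPM for cullin members. The same presence values were also counted inside single cells, so what follows is another view of them and no independent repeat. The share of E2 members present exceeded that of Rnf members in 47 of 49 cells, of F-box members in 46, of Trim members in 41, of Usp members in 39 and of cullins in 37. Against the 3 HECT genes it was higher in 21 cells. Of the 28 E2 members, 6 were present in the lowest cell, 17 at the median and 26 in the highest, and their summed level ran from 831 through 3038 to 5195 RPM. The 56 Rnf members had the highest median sum, 3594 RPM, and 7, 23 and 43 of them were present in the lowest, median and highest cell. The summed level of the Usp members reached 10406 RPM in IL02 of pool 1, against a median of 2441 RPM.

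**Figure D1:**
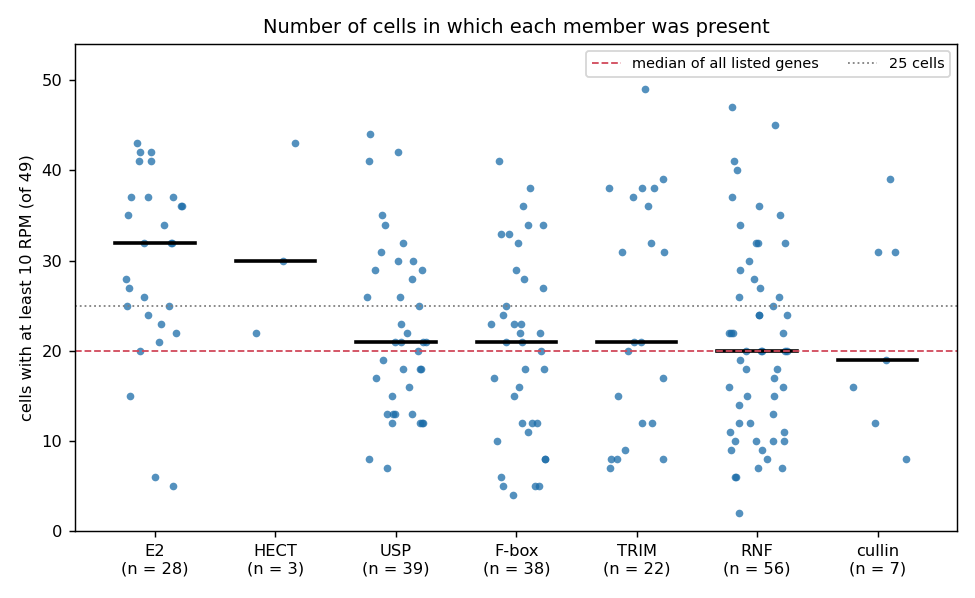
Number of the 49 cells with at least 10 RPM (vertical axis) for each of the 193 members, by class; each point is a gene, black bars are class medians, the dashed line is the median of all listed genes (20 cells) and the dotted line marks 25 cells. The E2 median of 32 cells lies above the dotted line and the medians of Usp, F-box, Trim, Rnf and cullin members, between 19 and 21 cells, lie below it.

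Among the E2 enzymes, Ube2d3, Ube2k and Ube2n were present in the most cells. Ube2d3, an E2 used by many RING ligases, was present in 43 cells, and its level ran from 2.73 RPM in the lowest cell through a median of 228 to 782 RPM in the highest. Ube2k, which builds degradative chains, ran from 0 through 308 to 904 RPM and was present in 42 cells. Ube2b, a partner of the histone and DNA damage ligases, ran from 0 through 153 to 774 RPM and was present in 41 cells. The lower quartile of these 3 enzymes was 83.8, 88.8 and 50.7 RPM, so that few cells lay near 0. Ube2n, the E2 of non-degradative chains, was present in 42 cells with a median of 119 RPM, while Ube2v2, the inactive partner it works with, was present in 21 cells with a median of 3.93 RPM. Both were present in 20 cells. Of their 3′ ends, cut into words of 100 bases, 20.4% of the words of Ube2n and 13.8% of those of Ube2v2 also occur in another annotated gene, so both levels are uncertain. The other known partner, Ube2v1, has no row in the table used here. The highest E2 value of a single cell was that of Ube2w, which attaches ubiquitin to the amino terminus of proteins, with 2605 RPM in cell IL12 of pool 1, against a median of 87.4 RPM.

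The E2 enzymes of the ubiquitin-like protein Nedd8, which activates cullins, were present in 35 cells (Ube2m, median 36.1 RPM) and 25 cells (Ube2f, median 11.6 RPM). Both were present in 19 cells and neither in 8. Ube2ql1 was present in 32 cells with a median of 46.5 RPM and a highest value of 1045 RPM. At the other end stood Ube2c, the E2 of the anaphase-promoting complex that acts in mitosis, which was present in 6 cells, with values from 22.9 to 253 RPM there and a median of 0. Fbxo5, an F-box protein that inhibits the same complex, was present in 4 cells, with values from 32.4 to 195 RPM. No cell held both of them, so that 10 cells held either. Ube2c also shared no cell with the rare members Ube2cbp (5 cells), Rnf17 (2 cells) and Fbxl4 (5 cells). Fbxo5 shared 1 cell with Rnf17 and none with Ube2cbp or Fbxl4. Genes present in so few cells can easily share none, and whether Ube2c and Fbxo5 exclude each other was not tested. Of the 4 cells with Fbxo5, 3 were of pool 1, and none of the 6 with Ube2c was.

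Ube3a, the HECT ligase whose maternal copy is the active one in most mature neurons and whose loss causes Angelman syndrome, was present in 43 of 49 cells (87.8%). The gene lies on the forward strand of chromosome 7, at chr7:59228750-59311536 of GRCm38. Its level was 0 in 1 cell, 226 RPM at the median and 1506 RPM at the highest, in IL07 of pool 2. The pool medians were 270, 347, 220, 184 and 115 RPM in pools 1 to 5. Of the 100-base words at its 3′ end, 22.3% also occur in another annotated gene, so some of its reads may be shared. It also shares exon bases with 3 genes on the opposite strand, whose reads cannot be told apart if the counting did not use strand. Its relatives were lower: Ube3c was present in 30 cells with a median of 27.6 RPM and Ube3b in 22 cells with a median of 5.08 RPM.

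Among the RING-type ligases, Trim2 was the member present in every cell. Trim2 binds neurofilament and is known for a part in axon specification. The gene lies on the reverse strand of chromosome 3, at chr3:84160439-84306877 of GRCm38, and shares no exon bases with another annotated gene. Its level was 20.8 RPM in the lowest cell, 302 RPM at the median and 1940 RPM in the highest, IL06 of pool 2. Of all listed genes, 97.8% were present in fewer cells. Its SD between the 49 cells was 1.44 on the scale of log2(RPM + 1), where Rnf187 had 1.73, Ube3a 2.33 and Fbxw7 2.45. Its close relative Trim3 was present in 31 cells, with a median of 33.4 RPM and a highest value of 249 RPM, and Trim2 was the higher of the pair in 47 of 49 cells.

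**Figure D2:**
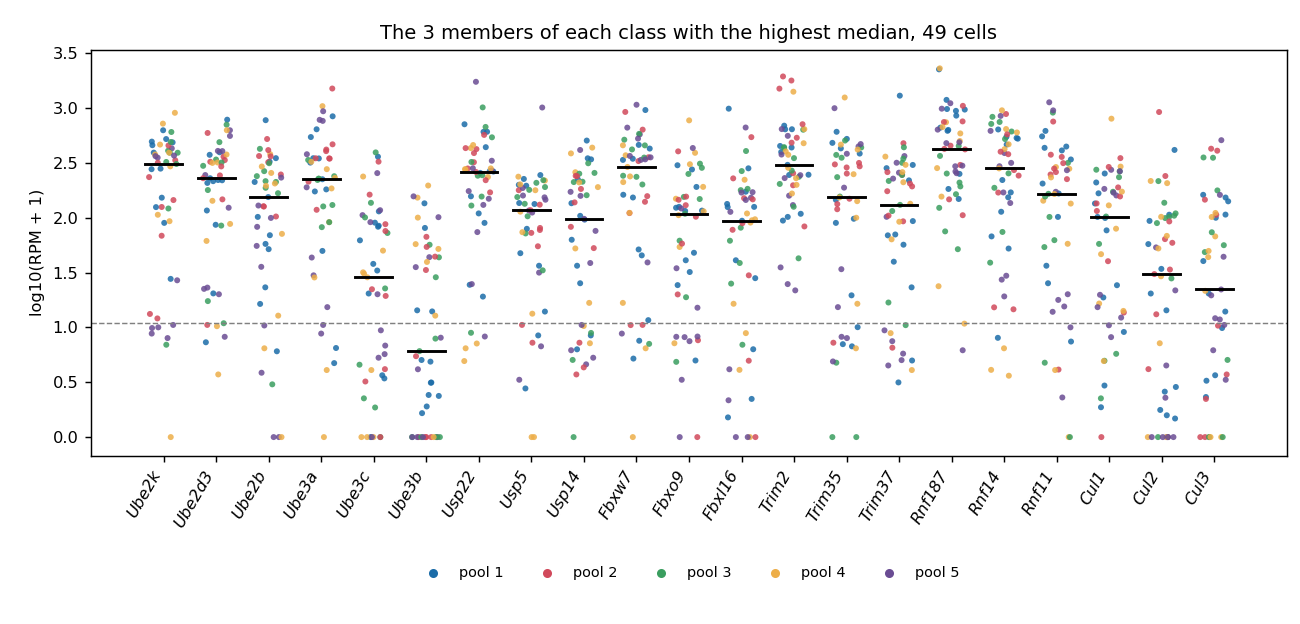
Level in each of the 49 cells, as log10(RPM + 1), of the 3 members of each class with the highest median; points are cells coloured by library pool, black bars are medians and the dashed line marks 10 RPM. Trim2 has no cell under the line, whereas Ube3b and Cul3 spread from 0 to values above 100 RPM.

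The promoters of 149 members were found in the RefSeq table of GRCm38.p6, as 250 bases before to 50 after the most upstream start that RefSeq gives. Their median number of CG pairs was 24, against 22 for 6837 listed genes and 7 for all 27025 windows. The Sp1 box GGGCGG was held, on either strand, by 72.5% of the members, 67.4% of the listed genes and 35.9% of all windows, and CCAAT by 28.2% of the members and 38.3% of the listed genes. A match is a description and not a binding site. The windows of Ube3a and Fbxo5 are shown as examples of a gene present in many cells, 43, and in few, 4, and that of Trim2 because its gene was present in every cell; CG pairs are in capitals. Ube3a (chr7:59228500-59228799, forward strand) holds 29, Fbxo5 (chr10:5805416-5805715, reverse strand) 20 and Trim2 (chr3:84304726-84305025, reverse strand) 15. Of the 3, CCAAT is found in Fbxo5 alone. The order of these 3 windows does not stand for the members. The median was 26.5 CG pairs for the 64 members present in at least 25 cells and 23 for the 85 present in fewer.
Ube3a: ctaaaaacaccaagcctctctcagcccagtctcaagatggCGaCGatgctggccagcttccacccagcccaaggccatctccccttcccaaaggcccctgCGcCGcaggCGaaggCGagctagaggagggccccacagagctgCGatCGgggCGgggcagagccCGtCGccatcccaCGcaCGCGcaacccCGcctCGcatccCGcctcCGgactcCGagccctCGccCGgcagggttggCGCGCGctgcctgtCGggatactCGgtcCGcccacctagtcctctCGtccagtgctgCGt
Fbxo5: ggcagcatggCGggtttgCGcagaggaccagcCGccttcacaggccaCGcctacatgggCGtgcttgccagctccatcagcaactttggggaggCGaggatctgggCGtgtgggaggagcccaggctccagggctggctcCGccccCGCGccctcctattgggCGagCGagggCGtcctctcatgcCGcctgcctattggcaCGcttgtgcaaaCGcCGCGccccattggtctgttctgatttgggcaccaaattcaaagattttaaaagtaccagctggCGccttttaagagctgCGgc
Trim2: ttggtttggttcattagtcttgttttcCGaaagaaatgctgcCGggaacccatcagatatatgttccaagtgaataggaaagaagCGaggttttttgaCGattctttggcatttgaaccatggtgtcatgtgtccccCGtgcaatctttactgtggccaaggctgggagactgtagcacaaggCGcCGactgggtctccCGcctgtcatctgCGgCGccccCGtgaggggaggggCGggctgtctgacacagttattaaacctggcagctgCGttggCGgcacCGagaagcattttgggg

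The other Trim members with the highest medians were Trim35 (38 cells, median 155 RPM, highest 1247 RPM) and Trim37 (38 cells, median 130 RPM, highest 1296 RPM), a ligase that acts at centrosomes and on histones. Trim46, which bundles microtubules in the proximal axon, was present in 39 cells with a median of 73.1 RPM and a highest value of 561 RPM, and 12.3% of its 3′ words occur in another gene. Trim9 and Trim67, neuronal ligases of the netrin pathway, were present in 32 and 21 cells, and 14 cells held neither. Trim28, a co-repressor of transposons, was present in 36 cells with a median of 93.1 RPM. Trim21, Trim25 and Trim30a, known from immune cells, have no row and were not analysed here.

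Of the Rnf members, Rnf187 had the highest median of all members. It is a ligase of AP-1 co-activation, lies at chr11:58932288-58938916 of GRCm38 on the reverse strand, and was present in 47 cells, with 5.19 RPM in the lowest cell, 423 RPM at the median and 2300 RPM in the highest. Rnf14, a ligase of the RING-between-RING type, was present in 45 cells and ran from 2.63 through 281 to 953 RPM. Rnf11, which acts with the Nedd4 family, was present in 41 cells and ran from 0 through 165 to 1127 RPM. In pool 5 the median of Rnf11 was 17.9 RPM, while it lay between 101 and 279 RPM in the other pools. Rnf20 and Rnf40, both subunits of the ligase of histone H2B, were present in 32 and 24 cells, together in 17, and neither in 10. Rnf17, known from germ cells, was the member present in the fewest cells, with 163 RPM in IL02 of pool 5 and 127 RPM in IL02 of pool 4.

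The cullins differed from each other. Cul1, the scaffold of the complexes that carry F-box proteins, was present in 39 cells, with 101 RPM at the median and 799 RPM at the highest. Cul2 (median 29.6 RPM, highest 919 RPM) and Cul3 (median 21.2 RPM, highest 508 RPM), scaffolds for other substrate receptors, were each present in 31 cells. Cul4a was present in 19 cells, Cul5 in 16, Cul7 in 12 and Cul9 in 8, with medians from 0 to 1.31 RPM. At least 1 cullin was present in 48 cells, and Cul1, Cul2 and Cul3 together in 19. Rnf7, the RING partner of Cul5, was present in 40 cells, and 26 cells held Rnf7 without Cul5. Cul4b has no row and was not analysed here.

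Fbxw7, the receptor that leads cyclin E, Notch and Myc to Cul1, had the highest median level of the F-box genes. It lies at chr3:84815268-84979198 of GRCm38 on the forward strand, was present in 41 cells and ran from 0 through 289 to 1071 RPM. Fbxo9 (38 cells, median 108 RPM) and Fbxl16 (36 cells, median 92.9 RPM) followed. Fbxo31 and Fbxo21 were present in 34 and 33 cells, with medians of 73.6 and 67.0 RPM. Fbxo41 and Fbxo45, both known from neurons, were lower over all cells, with 22 and 18 cells and medians of 5.78 and 2.66 RPM. In pool 1, however, the median of Fbxo45 was 69.8 RPM, while it lay between 0 and 5.45 RPM in the other pools. Fbxl5, a sensor of iron, was present in 27 cells with a median of 23.5 RPM.

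Among the deubiquitinases, Usp22 had the highest median. Usp22 is a subunit of the SAGA complex and removes ubiquitin from histones. It lies at chr11:61151785-61175055 of GRCm38 on the reverse strand, was present in 44 cells, and ran from 3.93 through 263 to 1734 RPM. Usp5, which takes apart free ubiquitin chains, was present in 41 cells and ran from 0 through 115 to 1010 RPM, and Usp14, which sits on the proteasome, was present in 35 cells and ran from 0 through 96.6 to 504 RPM. All 3 were present in 29 cells, and each cell held at least 1 of them. Usp9x, known for neuronal polarity, was present in 22 cells with a median of 4.26 RPM, Usp7, the protease that stabilizes Mdm2, in 26 cells with a median of 23.5 RPM, and Usp46 in 32 cells with a median of 37.7 RPM. Usp50 was present in 42 cells with a median of 83.8 RPM, but it shares exon bases on the same strand with another annotated gene, and 17.3% of its 3′ words occur elsewhere, so its level is uncertain.

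Close relatives differed in how often they were present together (plot of 4 pairs). Joint presence also depends on how many cells hold each gene, and it was not set against that of other listed genes. Ube2a and Ube2b, which are near-identical proteins, were present in 36 and 41 cells, both in 31, Ube2a without Ube2b in 5 and Ube2b without Ube2a in 10. At least 1 of them was thus present in 46 cells, and their Spearman's rho over the 49 cells was -0.069. Ube2d1 and Ube2d3, present in 37 and 43 cells, had a rho of 0.508 and were both present in 34 cells. Ube2d2a, present in 28 cells, was the lower relative of Ube2d3 in 40 of 49 cells, and at least 1 of these 3 Ube2d genes was present in 47 cells. Ube2e2 and Ube2e3, present in 37 and 34 cells, were both present in 28 cells, with a rho of 0.454. The pairs of Ube2d1 and of Ube2e2, and the combinations of 3 or more genes, were picked after their values were seen. Cells share library pools and depth, so these correlations are descriptions.

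**Figure D3:**
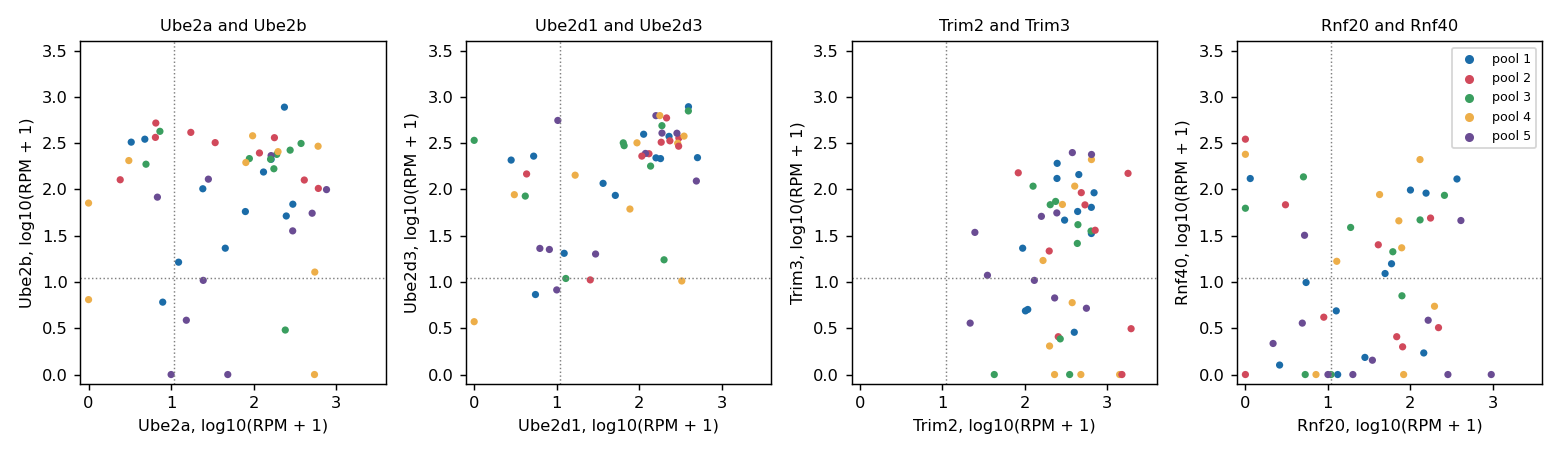
Levels of 4 pairs of related or partner genes in the 49 cells, each axis as log10(RPM + 1), points coloured by library pool, dotted lines at 10 RPM. Ube2d1 and Ube2d3 lie along a diagonal (rho 0.508), Ube2a and Ube2b do not (rho -0.069), every cell lies to the right of the line for Trim2, and 17 cells lie above both lines for Rnf20 and Rnf40.

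Over all 3160 pairs of the 80 members present in at least 25 cells, with reads thinned to 358412 per cell in the 44 cells that reached this depth, the median rho was 0.109, against 0.073 over all pairs of listed genes present as widely. Among genes present in at least 40 cells the order turned, with 0.018 over 105 pairs of members against 0.079 over all pairs. The highest values were 0.667 for Trim28 and Rnf4 and 0.61 for Trim8 and Usp16, and the lowest was -0.449 for Usp48 and Rnf7. A weak correlation of sparse counts is no finding.

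The number of members per cell followed the number of genes of any kind. Per cell, 31 members were present in the lowest cell, 89 at the median and 155 in the highest, and members made up between 1.52 and 2.52% of the listed genes present. The summed level of the 193 members ran from 4210 through 14924 to 21371 RPM, or from 0.421 through 1.49 to 2.14% of the reads of a cell. Spearman's rho of members present with listed genes present was 0.979 over 49 cells, and with reads per cell it was 0.692. Within pools 1 to 5 the rho with reads was 0.643, 0.933, 0.967, 0.895 and 0.766, over 12, 9, 9, 9 and 10 cells. With the share of mitochondrial reads it was -0.397 and with that of hemoglobin -0.296. With the summed neuron markers it was 0.301. With the summed markers of astrocytes, the oligodendrocyte lineage and microglia it was -0.145, -0.029 and -0.09. The lowest cell, IL01 of pool 3, had 68.8% of its reads on hemoglobin, and the highest, IL03 of pool 3, had 6867017 reads.

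**Figure D4:**
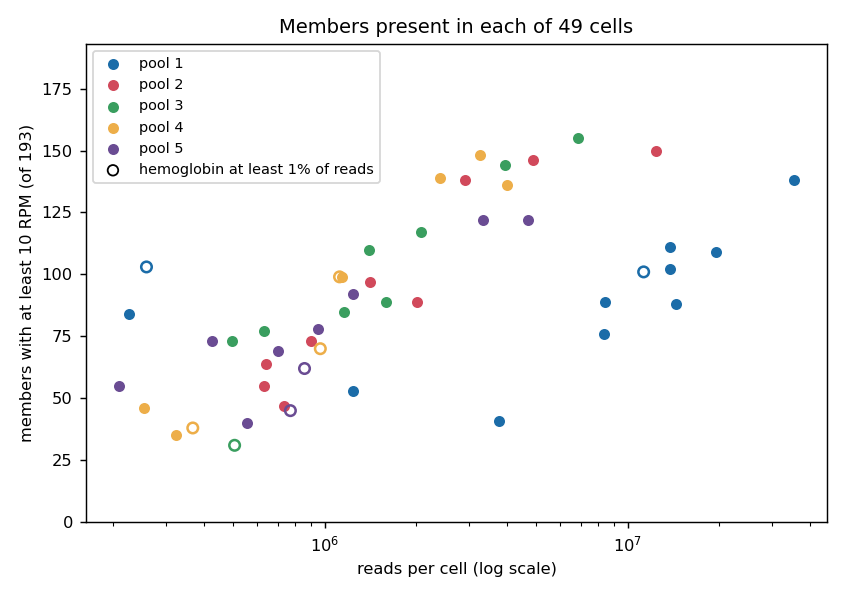
Members with at least 10 RPM (vertical axis, of 193) against reads per cell (log scale) for the 49 cells, coloured by library pool; open circles are the 8 cells with at least 1% of reads on hemoglobin. The number runs from 31 to 155, and the cells of pool 1 mostly lie to the right of cells with as many members in the other pools, except for 2 shallow cells with 103 and 84 members.

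The pools had medians of 95, 89, 89, 99 and 71 members per cell. Of the 80 members present in at least 25 cells, 44 (55.0%) had their lowest pool median in pool 5, as had 43.7% of all listed genes present as widely. Examples were Ube2k, with 17.7 RPM in pool 5 and 144 to 390 RPM in the others, and Fbxo9, with 7.23 RPM in pool 5 and 101 to 148 RPM in the others. Fbxw7 was not low there, with 359 RPM in pool 5, 353 RPM in pool 3, 210 RPM in pool 4 and 156 RPM in pools 1 and 2. Some members differed between other pools, so that their median over all cells hides a spread. The median of Usp9x was 0.145 RPM in pool 1 and 75.1 RPM in pool 3. For Ube2ql1 it was 187 RPM in pool 1 and 0 in pool 4. Pool 5 also had the lowest median depth, 814366 reads, and the part of depth or of the pool in these levels was not tested.

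Single cells held most of the RPM of a few members (plot of the share held by 1 cell). For 9 of 193 members (4.66%) more than 50% of the RPM summed over the 49 cells lay in 1 cell, beside 6.59% of all listed genes. Rnf126, a ligase of the cytosolic quality control, had 72.9% in IL02 of pool 1, where its level was 5974 RPM from 1542 reads, against 168 RPM in the next cell. Usp47, a protease of DNA repair enzymes, had 67.6% in the same cell, with 9174 RPM from 2368 reads, against 777 RPM in the next. Fbxw11, a receptor of the beta-TrCP type, had 64.5% in IL12 of pool 1, with 6785 RPM from 1529 reads, against 482 RPM in the next. These 3 genes were otherwise widespread, present in 30, 34 and 32 cells with medians between 25.4 and 35.8 RPM.

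The other 6 were Rnf182 (62.2%), Trim39 (61.7%) and Fbxo46 (60.3%) in IL08 of pool 5, Usp43 (57.3%) in IL09 of pool 1, Fbxl4 (55.0%) in IL04 of pool 5 and Rnf17 (52.8%) in IL02 of pool 5, of which all but Rnf182 were named after their values were seen. Just under the limit lay Fbxo5, with 49.1%. IL08 of pool 5, IL12 of pool 1 and IL02 of pool 1 had 209850, 225363 and 258130 reads. The 5 cells with the fewest reads held the largest share of 6 of the 9 members and of 152 of the 594 listed genes over 50%. The count depended on which cells were used. Without pool 1, 3 or 4 it was 15, 14 and 17 (7.77, 7.25 and 8.81% of the members, beside 9.85, 10.6 and 10.5% of all listed genes). Without pool 2 or 5 it was 13 and 12 (6.74 and 6.22%, beside 10.7 and 9.26%). Without the 8 cells with at least 1% hemoglobin it was 15 (7.77%, beside 8.75%). Without IL02 and IL12 of pool 1 it was 8 (4.1%, beside 6.0%), and without the 5 cells with the fewest reads it was 5 (2.59%, beside 6.02%). When the other 44 cells were also thinned to 1 depth it was 4 (2.07%, beside 6.15%). The share of all listed genes thus also rose with each pool left out.

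**Figure D5:**
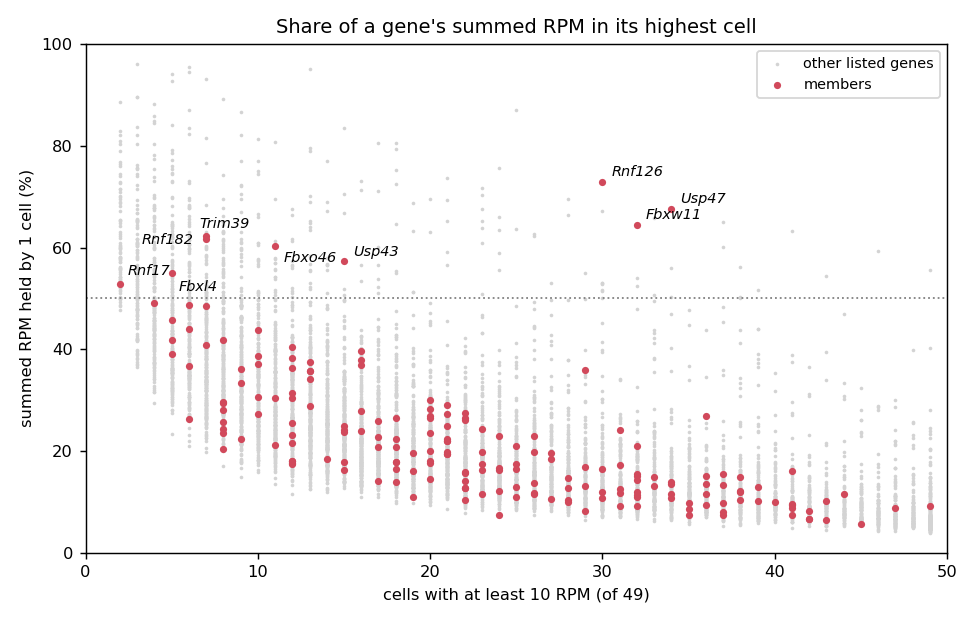
Share of a gene's summed RPM held by its highest cell (vertical axis, percent) against the number of cells with at least 10 RPM; members in red, other listed genes in grey, the dotted line at 50%. The 9 members named are above the line, and Rnf126, Usp47 and Fbxw11 stand out among genes present in 30 to 34 cells.

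Other genes of the pathway were taken from a list of 50 symbols picked by hand. Of these, 40 had a row and 28 were present in at least 25 cells, beside 38.2% of all listed genes, with 7 of 13 among the other ligases and 6 of 10 among the other deubiquitinases. Ubb, which encodes ubiquitin itself, had a median of 237 RPM and was present in each of the 49 cells. The E1 enzyme of ubiquitin, Uba1, was present in 45 cells with a median of 279 RPM, and the other ubiquitin E1, Uba6, in 18 cells with a median of 3.16 RPM. All 8 cullin partners with a row were present in at least 25 cells, led by Skp1a, the adaptor between Cul1 and F-box proteins, with a median of 978 RPM, and Tceb2, an adaptor of Cul2 and Cul5, with 786 RPM. Uchl1, an abundant neuronal deubiquitinase outside the Usp family, was present in every cell, from 155 through 1131 to 4328 RPM, so that its lowest cell was above the median of Ube2n. Of the other ligases, Nedd4 was present in 48 cells with a median of 336 RPM, and Itch in 16 cells with a median of 0.496 RPM.

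The annotation lists 334 protein-coding genes under the same symbols, and 191 of them (57.2%) have a row, beside 38.3% of all 21992 protein-coding genes. The share was 100% of the 3 HECT genes, 87.5% of the 8 cullins, 73.0% of the 37 E2 genes and 69.6% of the 56 Usp genes. It was 65.9% of the 85 Rnf genes, 48.1% of the 77 F-box genes and 32.4% of the 68 Trim genes. Members lie on 20 chromosomes. Of the 193 members, 64 share exon bases with another annotated gene, 14 of them on the same strand. For Rnf34, Fbxo46, Usp49 and Usp34, between 33.8 and 53.3% of the 3′ words also occur in another gene, so their levels are uncertain. Some members are no active enzyme of the class their symbol gives, among them Usp6nl, a GTPase-activating protein, Ube2d-ps, a pseudogene, Ube2cbp, a ligase, and Ube2v2, the inactive partner of Ube2n.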

How the data were processed

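The authors patched single neurons, made cDNA with a SMART-Seq v4 3′ DE kit, aligned the reads to GRCm38 (mm10) with STAR, counted them with HTSeq and deposited RPM for 9020 genes in 49 cells. Versions, annotation and the strand setting of counting are not given in the sources used here. Without molecular identifiers a read is not a separate molecule. Members were found by symbol in Python 3.11.15 (pandas 2.3.3, numpy 2.4.6, scipy 1.17.1, matplotlib 3.10.9). Whole reads were recovered from the step of each cell (with a tolerance of 0.01 read, 100% of the values came out whole, and 100% of the reads of simulated cells were recovered), and used for depth, thinning (44 cells kept, 5 left out) and values at 0. Since cells are 1 sample, no p-values were computed. A limit of 10 RPM was used because single reads may pass between cells of a pool. Members and lists were chosen with earlier results of these data known. The named genes were the 3 highest by median and the highest single value of each class, the 4 with the largest share in 1 cell, and a list of genes of known role. Coordinates and overlaps are from GENCODE M21 (GRCm38), which matched 192 of 193 members by symbol. Promoters are from RefSeq. The alternatives were other limits, each pool left out, hemoglobin-rich cells left out, RPM without mitochondrial and hemoglobin reads, thinning and members without exon overlap.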

Additional observations from a re-analysis of the deposited data

How the results depend on the processing

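The number of members with more than 50% of their RPM in 1 cell (9) was 15 without pool 1, 14 without pool 3 and 17 without pool 4. It was 15 without the 8 cells with at least 1% hemoglobin. The number was 5 without the 5 shallowest cells and 4 when the other 44 were also thinned to 358412 reads per cell, so that most of this fall came with the cells left out. The shares of all listed genes in these settings, given above, changed as well. The members present per cell (median 89) numbered 148 at a limit of 1 read, 129 at 1 RPM and 47 at 100 RPM. Those present in at least 25 cells (80) numbered 164, 143 and 17 at these limits. The counts over all listed genes at these limits are not given here, so these numbers describe the limits and not the members. Of the 128 members that share no exon bases, 51 were present in at least 25 cells, and their summed level was 10057 RPM. Both values are lower by construction since fewer genes were counted. The median rho (0.109) was 0.018 over members present in at least 40 cells, where all genes had 0.079, and 0.162 and 0.172 on log2(RPM + 1) and log2(RPM + 0.1) centred within pools, where all genes had 0.114 and 0.121. Of the values recomputed for these results, 51 were marked as the same and 17 as moved, as given here. Of those for single classes and genes, 301 were marked as the same and 64 as moved, most of them at limits of 1 read, 1 RPM and 100 RPM. The mark of same allowed wide differences, with a factor of 1.5 for counts. It took in the 13 and 12 members over 50% without pools 2 and 5, against 9. It also took in a median of 57 members per cell, against 89, among members that share no exon bases. Leaving out IL02 and IL12 of pool 1, leaving out the 5 shallowest cells at full depth, and leaving out Usp6nl, Ube2d-ps and Ube2cbp were chosen after seeing the data. At 10 RPM the shallowest cell needs 2.1 reads and the deepest 353. No paired analysis was possible because the 49 cells form a single group.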
